A study of Mus musculus with 13 samples.

Results

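Whole organoids in which Apc was deleted through a driver of the secretory lineage were compared with wild-type (WT) organoids, gene by gene across the transcriptome. Of the 13 RNA-seq libraries of the series, 4 were chosen by their titles, 2 of Sec-Cre Apc-null organoids and 2 of WT organoids, from adult mouse small intestine. Sec-Cre organoids had the genotype Atoh1CreERT2;Apcfl/fl;Rosa26tdTomato, that is a tamoxifen-inducible Cre driven by Atoh1, floxed Apc and a red reporter that Cre switches on. The WT organoids are labelled WT alone, so effects of the Cre driver, the floxed alleles and the reporter cannot be told apart from those of Apc loss. Both groups received 2 doses of 1 mg tamoxifen, and their time point is 10 days. By the sample labels ileal crypts were plated at that time after induction, whereas by the design text organoids were examined at that time after plating, which leaves their time in culture unclear. The extraction protocol names the duodenum. Atoh1 is expressed in secretory cells and their progenitors, the labels name no sort of the organoid cells, and the share of cells that had recombined was not measured here. ISC-Cre organoids (Lgr5eGFP-CreERT2;Apcfl/fl;Rosa26tdTomato, 2 libraries, same treatment and time) entered the fit as one more organoid group and are compared with Sec-Cre organoids at the end.

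Apc is a scaffold of the cytoplasmic complex that marks beta-catenin for destruction. Without it beta-catenin builds up, enters the nucleus and switches on genes bound by TCF/LEF factors, as Wnt ligands otherwise do at the base of the intestinal crypt. In the small intestine Wnt signalling keeps stem and Paneth cells, and cells that leave the crypt become absorptive enterocytes or secretory goblet, enteroendocrine and tuft cells. Organoids are epithelial cultures in which crypt and villus-like domains form without a stroma.

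The libraries held 20941447 and 22182702 gene counts in Sec-Cre organoids and 13631423 and 21306261 in WT organoids. Genes with at least 1 count numbered 16176 and 16704 in Sec-Cre libraries and 14253 and 14587 in WT libraries. A first principal component with 82.2% of the variance separated WT from Apc-null libraries, and the next, with 6.68%, separated the WT libraries from each other. Epithelial identity was checked on 14 epithelial markers, whose summed level was 9940.2 and 9738 CPM (counts scaled to library size) in Sec-Cre organoids and 13880.0 and 13327 CPM in WT organoids. Of these 14, none rose and 8 fell (5 without Sec-Cre replicate 1, 4 in a fit of all 13 libraries). The cadherin gene Cdh1 had 1364 and 1357 CPM in Sec-Cre and 1379.5 and 1382 CPM in WT libraries and did not pass (edgeR adjusted p = 0.906). The adhesion gene Epcam had 1144 and 1094 CPM in Sec-Cre and 1917 and 1803 CPM in WT libraries (log2 fold change -0.73 ± 0.12 SE, edgeR adjusted p = 0.00374, 0.136 in a fit of all 13 libraries). Markers of other cell types were scarce. Of 21 immune markers 5 had enough reads to be tested, of 18 fibroblast and smooth muscle markers 8, of 12 endothelial markers 6 and of 13 neural markers 7. Summed over the tested members, immune markers had 30.3 and 27.0 CPM in Sec-Cre and 80.0 and 124 CPM in WT libraries and neural markers 21.9 and 26.0 CPM in Sec-Cre and 19.6 and 26.0 CPM in WT libraries. Fibroblast markers summed to 128 and 99.9 CPM in Sec-Cre and 134 and 169.8 CPM in WT libraries, of which Fbln1 held 122 and 96.5 CPM in Sec-Cre and 129 and 165 CPM in WT libraries. Endothelial markers summed to 43.3 and 23.5 CPM in Sec-Cre and 34.3 and 17.9 CPM in WT libraries, with Flt1 at 19.8 and 8.62 CPM and Cdh5 at 17.4 and 8.06 CPM in Sec-Cre libraries and both at 0 in WT libraries. Of the endothelial markers Pecam1, Kdr, Tie1, Eng, Erg and Emcn were under the filter on low counts, as were the fibroblast and muscle markers Col3a1, Lum, Thy1, Myh11 and Des. The part of other cell types in the results was not tested.

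Apc itself was read at 205 and 226 CPM in Sec-Cre organoids and 180.3 and 158 CPM in WT organoids (chromosome 18, 34220924 to 34322552, GRCm38; log2 fold change 0.35 ± 0.15 SE, edgeR adjusted p = 0.117). Reads were counted over all exons and Cre removes only some of them, which means that this level is no check of the labels. Axin2, a scaffold of the destruction complex and a direct Wnt target, had 909.6 and 871 CPM in Sec-Cre and 255 and 448 CPM in WT libraries and rose (1.34 ± 0.24, adjusted p = 0.00518). Atoh1, the transcription factor of secretory fate that drives the Cre, had 12.2 and 12.7 CPM in Sec-Cre and 45.8 and 48.3 CPM in WT libraries and fell (-1.92 ± 0.19, adjusted p = 0.000422). Lgr5, the R-spondin receptor of crypt-base stem cells, had 137 and 310.1 CPM in Sec-Cre and 237 and 257 CPM in WT libraries, and the groups overlapped (adjusted p = 0.778). Without Sec-Cre replicate 1 its log2 fold change was 0.34, and without replicate 2 it was -0.84 with adjusted p = 0.0386.

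Of 24054 genes, 14208 had enough reads to be tested, and 4685 of them differed between Sec-Cre and WT organoids at an edgeR adjusted p under 0.05 (33.0%, n = 2 libraries per group). Of all tested genes 2367 (16.7%) rose and 2318 (16.3%) fell, and the median log2 fold change over all tested genes was 0.05. Large changes, as fitted, were more often rises. A change of at least 16-fold was fitted for 715 genes that rose and 330 that fell, and 1621 of the called genes changed by less than a factor of 2. The genes that rose took 17.9% of the counts in Sec-Cre and 7.45% in WT organoids, and the genes that fell took 20.4% in Sec-Cre and 37.7% in WT organoids. Among called genes 412 had no count in either WT library and 43 none in either Sec-Cre library. The fold fitted for such genes depends on a small count that the fit adds. A gene low in WT could pass the filter through either Apc-null group, and WT replicate 1 had the fewest counts. The part of these in the excess of large rises was not tested. With the compared groups alone, 1989 genes rose and 2132 fell. In 10055 genes (70.8%) the groups did not overlap. List counts of 1 to 5 genes are fragile: 41 of 52 such counts moved by over 1.5 times in at least 1 alternative other than the fold threshold, and larger counts that did are named with their values. A test against a log2 fold change of 1 moved many more, including larger ones. The count of called genes was 2608 without Sec-Cre replicate 1, 2721 without Sec-Cre replicate 2 and 2477 when all 13 libraries were fitted. In bulk RNA, fewer cells of a type and less RNA per cell cannot be told apart, and this holds for each result that follows.

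Among the largest rises were genes with no read in the WT libraries. Robo1, a receptor for Slit guidance proteins (chromosome 16, 72308306 to 73046095, GRCm38), had 165 and 115 CPM in Sec-Cre libraries and no count in WT libraries, at least 1490-fold higher against 3 counts over the WT group (adjusted p = 0.000104). The same held for the secreted growth factor gene Ptn, with 102 and 57.8 CPM in Sec-Cre libraries (at least 849-fold higher), and for the homeobox gene Irx5, with 103 and 46.4 CPM (at least 786-fold). Cdh13, a membrane-anchored cadherin, had 94.8 and 47.3 CPM in Sec-Cre libraries (at least 751-fold higher). None of these 4 genes had a read in WT organoids. Sox17, an endoderm transcription factor, had 51.1 and 41.1 CPM in Sec-Cre libraries and the serpin gene Serpinb11 49.7 and 42.2 CPM, again with no WT count (at least 491-fold and 489.9-fold higher). Ephb6, an Eph receptor without kinase activity, had 31.9 and 26.4 CPM in Sec-Cre libraries and no WT count (at least 310.5-fold higher). Gulo, the last enzyme of vitamin C synthesis, had 45.8 and 17.6 CPM in Sec-Cre libraries and none in WT (at least 334-fold higher). With limma-voom and library weights, Gulo lost its call (adjusted p = 0.0628).

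Among the largest falls were genes of enterocytes, goblet cells and enteroendocrine cells. The lipoprotein gene Apoa1 had 0.0934 and 0.523 CPM in Sec-Cre and 315 and 316 CPM in WT libraries (log2 fold change -9.94 ± 0.39 SE, edgeR adjusted p = 2.76e-05). Each Sec-Cre library was below 1 CPM and each WT library above 100 CPM. Ces1f, a carboxylesterase that hydrolyses esters and drugs, had 0.0934 and 0 CPM in Sec-Cre and 103 and 50.5 CPM in WT libraries, a ratio of 0.000639 (95% counting interval 7.74e-05 to 0.00231). Zg16, a lectin-like protein of goblet cell granules, had 0.327 and 0 CPM in Sec-Cre and 114 and 134 CPM in WT libraries (-9.55 ± 0.77, adjusted p = 0.000171). The hormone gene Gip had 0 and 0.174 CPM in Sec-Cre and 48.2 and 68.7 CPM in WT libraries (-9.25 ± 1.23, adjusted p = 0.00148). Apoa4 and Cyp2c66 were also without a Sec-Cre count (at least 3372-fold and 804-fold lower), but 64.5% and 33.4% of their 31-base words occur in other genes, so their counts are uncertain.

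Among the genes that rose at least 2-fold, several took many reads. Rn45s, the ribosomal RNA precursor, had 12069 and 16105 CPM in Sec-Cre and 4124 and 4921 CPM in WT libraries. Lars2, a mitochondrial leucyl-tRNA synthetase, had 1051 and 1458 CPM in Sec-Cre and 199 and 252 CPM in WT libraries. Both are often taken as signs of RNA quality, and their part in the other results was not tested. Rn45s lost its call without Sec-Cre replicate 2 (edgeR adjusted p = 0.0864), WT replicate 1 (0.108) or WT replicate 2 (0.0649), and both genes lost theirs in a fit of all 13 libraries (0.483 and 0.174). Flna, an actin crosslinker, had 1125 and 1045 CPM in Sec-Cre and 122 and 154 CPM in WT libraries (log2 fold change 2.97 ± 0.19 SE, adjusted p = 6.94e-05). S100a6, a calcium-binding protein, had 960.3 and 599 CPM in Sec-Cre and 66.7 and 62.2 CPM in WT libraries (3.60 ± 0.35, adjusted p = 0.000352). Keratin 7 (Krt7) had 912 and 843 CPM in Sec-Cre and 316 and 351 CPM in WT libraries (1.39 ± 0.18). The transcription factor gene Ets2 had 976 and 878 CPM in Sec-Cre and 420.2 and 483 CPM in WT libraries (1.04 ± 0.13).

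Genes with many reads also fell. The stem cell glycoprotein gene Olfm4 had 96.7 and 143 CPM in Sec-Cre and 1848 and 5291 CPM in WT libraries (log2 fold change -4.90 ± 0.64 SE, edgeR adjusted p = 0.00139). Cps1, the mitochondrial enzyme that fixes ammonia for citrulline synthesis, had 66.7 and 129 CPM in Sec-Cre and 3065 and 3311 CPM in WT libraries (-5.02 ± 0.60, adjusted p = 0.000918). For both genes every WT library was more than 10 times higher than either Sec-Cre library. Pigr, the receptor that carries IgA across the epithelium, had 365 and 483 CPM in Sec-Cre and 3405 and 2454 CPM in WT libraries (-2.79 ± 0.23). Fcgbp, a mucus protein, had 249.8 and 183 CPM in Sec-Cre and 3200.1 and 3465 CPM in WT libraries (-3.94 ± 0.30).

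**Figure D1:**
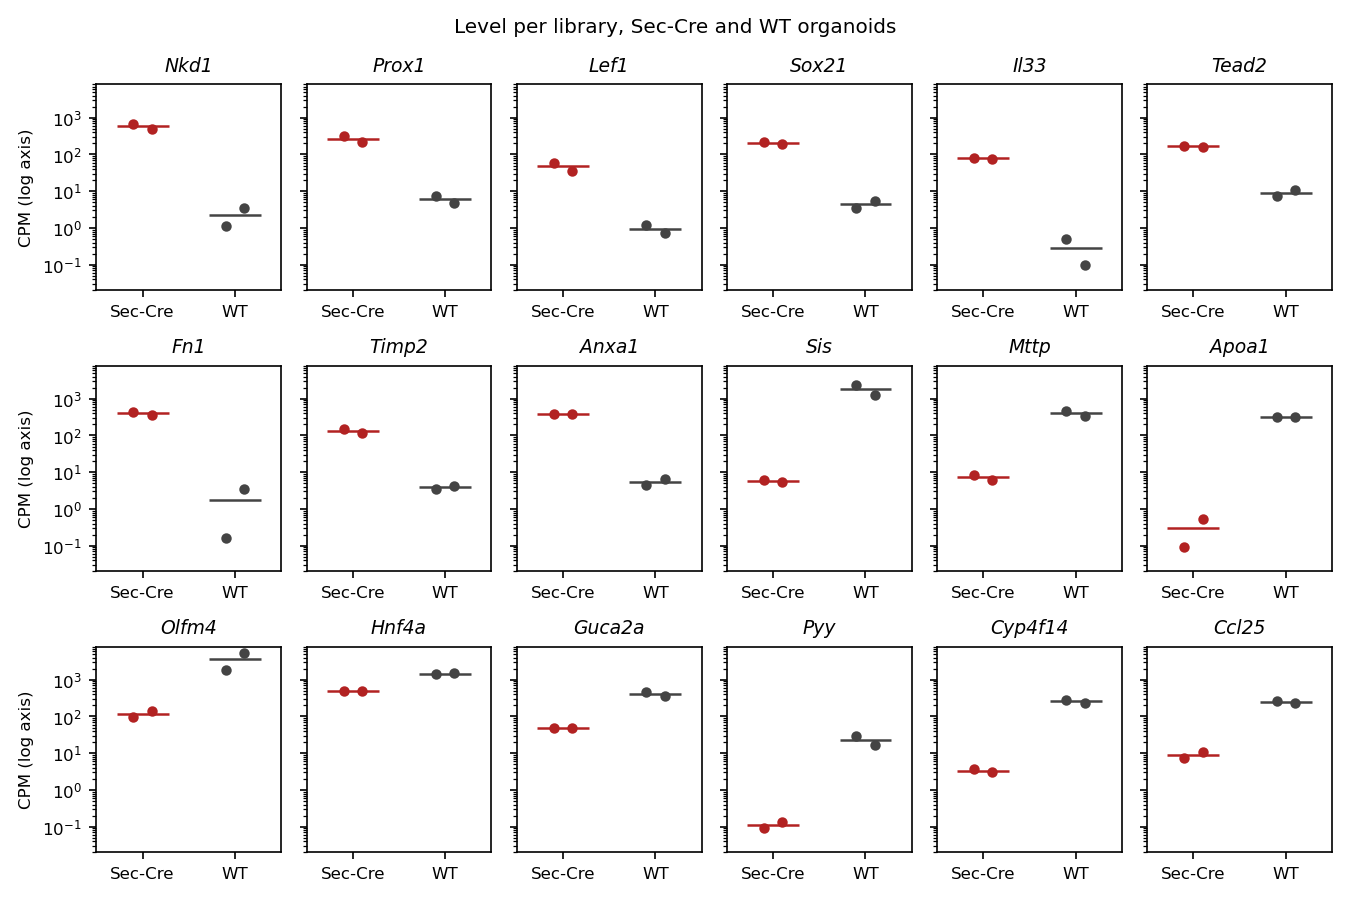
Level of 18 genes in each library, in CPM on a log axis (a value of 0 is drawn at 0.03), with 2 Sec-Cre libraries left of 2 WT libraries in each panel; dots are libraries and bars are group means. In the first 9 panels, Nkd1 to Anxa1, both Sec-Cre libraries lie above both WT libraries, and in the last 9, Sis to Ccl25, below them. The genes were picked by hand, and this separation was a condition for drawing them. The groups did not overlap in 70.8% of all tested genes.

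Along the Wnt pathway, rises outnumbered falls among feedback inhibitors and ligands, and most receptor genes did not pass. Of 14 tested feedback inhibitors 12 rose and 1 fell, with a median log2 fold change of 3.88 against 0.05 over all tested genes. Nkd1, an intracellular inhibitor that binds Dishevelled (chromosome 8, 88521354 to 88594884, GRCm38), had 692 and 494 CPM in Sec-Cre and 1.13 and 3.39 CPM in WT libraries (7.93 ± 0.44 SE, edgeR adjusted p = 4.47e-05). Of 15 genes for Wnt ligands and their export 9 rose and none fell, with a median of 3.53. Wnt7b had 22.5 and 28.8 CPM in Sec-Cre libraries and no WT count (at least 276-fold higher). A gene without a WT count passed the filter on its Apc-null reads alone and could not fall. Its fitted fold depends on the count that the fit adds. Counts and medians of every list with such genes, here and below, are partly set by this. Wls, the carrier that takes Wnt proteins to the cell surface, had 163 and 186 CPM in Sec-Cre and 81.8 and 71.9 CPM in WT libraries (1.18 ± 0.13). Wnt3, the ligand made by Paneth cells, had 11.7 and 11.8 CPM in Sec-Cre and 16.4 and 20.2 CPM in WT libraries and did not pass (adjusted p = 0.061), but passed without WT replicate 1 (0.0436) and with DESeq2 (0.0402). Of 18 tested receptor genes 4 rose and 2 fell (median 0.07). The R-spondin genes Rspo1, Rspo2, Rspo3 and Rspo4 were under the filter on low counts. The Frizzled receptor genes went both ways: Fzd10 had 27.8 and 20.1 CPM in Sec-Cre and 0 and 0.405 CPM in WT libraries, whereas Fzd5 had 46.8 and 44.6 CPM in Sec-Cre and 235 and 278 CPM in WT libraries (-2.49 ± 0.14, adjusted p = 4.47e-05).

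Of 25 Wnt-responsive transcription factor genes 17 rose and 2 fell (median log2 fold change 1.24). Prox1, a homeobox factor, had 321 and 219.6 CPM in Sec-Cre and 7.62 and 4.66 CPM in WT libraries (5.49 ± 0.30 SE, edgeR adjusted p = 4.47e-05). Lef1, the partner of beta-catenin, had 59.2 and 35.0 CPM in Sec-Cre and 1.22 and 0.709 CPM in WT libraries (5.67 ± 0.37, adjusted p = 7.95e-05). Mycl rose, with 304 and 250.1 CPM in Sec-Cre and 75.9 and 107 CPM in WT libraries (1.60 ± 0.19), Mycn fell, with 0.467 and 2.92 CPM in Sec-Cre and 11.4 and 17.8 CPM in WT libraries (-3.10 ± 0.74), and Myc did not pass, with 200.4 and 206 CPM in Sec-Cre and 196 and 215 CPM in WT libraries (adjusted p = 0.93). The 3 Myc family genes did not move together. Sp5, a zinc finger factor that binds at Wnt target genes, had 149.6 and 156 CPM in Sec-Cre and 11.9 and 31.3 CPM in WT libraries (2.80 ± 0.41, adjusted p = 0.00215). Its promoter window, from 250 bases before to 50 after the start (RefSeq, GRCm38.p6, chr2:70474673-70474972, plus strand), is shown because it holds the TCF/LEF motif, in capitals, at -104 from the start.
Sp5: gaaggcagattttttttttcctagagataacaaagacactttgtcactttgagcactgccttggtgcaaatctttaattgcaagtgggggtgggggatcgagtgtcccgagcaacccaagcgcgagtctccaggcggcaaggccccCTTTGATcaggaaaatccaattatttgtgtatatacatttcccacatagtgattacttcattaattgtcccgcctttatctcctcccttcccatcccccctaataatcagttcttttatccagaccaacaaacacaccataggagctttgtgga
The motif (CTTTGAA or CTTTGAT, both strands) was in 5.97% of promoters of genes that rose, 6.7% of those that fell and 6.29% of all tested genes with a window of this length. Among genes that changed at least 16-fold, sets defined after the values were seen, it was in 8.2% of those that rose and 11.6% of those that fell.

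Genes of crypt-base stem cells were called in both directions. Of 33 tested, 13 rose and 6 fell, against 16.7% and 16.3% over all tested genes (median log2 fold change 0.45), and 3 fell in a fit of all 13 libraries. Against a log2 fold change of 1, 5 rose and 2 fell. Tnfrsf19, a receptor of stem cells also called Troy, had 302 and 349 CPM in Sec-Cre and 6.97 and 12.5 CPM in WT libraries (5.04 ± 0.27 SE, edgeR adjusted p = 4.17e-05). Znrf3, a ubiquitin ligase that removes Frizzled receptors, had 125 and 118 CPM in Sec-Cre and 33.5 and 36.7 CPM in WT libraries (1.79 ± 0.13, adjusted p = 0.000134). Aqp4, a water channel, had 9.44 and 16.3 CPM in Sec-Cre and 361 and 286 CPM in WT libraries (-4.65 ± 0.34). The chloride cotransporter gene Slc12a2 had 847 and 1075 CPM in Sec-Cre and 1888 and 1975 CPM in WT libraries (-1.01 ± 0.17). Both fell, as did Olfm4, while Smoc2, a matrix protein of stem cells, did not pass (588 and 715 CPM in Sec-Cre and 376 and 517 CPM in WT libraries, adjusted p = 0.0717). It passed without WT replicate 2 (edgeR adjusted p = 0.0235), with upper-quartile scaling (0.0495), without the filter on low counts (0.0263) and with DESeq2 (0.0323).

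Genes of fetal and regenerating epithelium, which the adult crypt expresses after injury, rose in 24 of 34 cases and fell in 4 (median log2 fold change 3.13). Il33, an alarmin cytokine, had 81.6 and 75.4 CPM in Sec-Cre and 0.486 and 0.101 CPM in WT libraries (8.24 ± 0.40 SE, edgeR adjusted p = 2.99e-05). Lypd8, which keeps flagellated bacteria off the epithelium, was among the members that fell (49.4 and 78.8 CPM in Sec-Cre and 459.5 and 545 CPM in WT libraries). Without Sec-Cre replicate 2 the count of falls was 2. Of 37 genes of the YAP-TEAD pathway, whose coactivators respond to cell shape and injury, 21 rose and 2 fell (median 0.92). Tead2, a DNA-binding partner of YAP, had 172 and 159 CPM in Sec-Cre and 7.54 and 10.6 CPM in WT libraries (4.18 ± 0.20, adjusted p = 2.95e-05). The coactivator gene Wwtr1, also called TAZ, had 47.7 and 47.0 CPM in Sec-Cre and 0.729 and 2.03 CPM in WT libraries (5.01 ± 0.35, adjusted p = 0.000104), and the target Ankrd1 had 11.5 and 15.5 CPM in Sec-Cre libraries and no WT count (at least 145-fold higher). The promoter window of Il33 (chr19:29924863-29925162, plus strand) is shown because it holds the TEAD motif CATTCC, in capitals on either strand, at -131 from the start.
Il33: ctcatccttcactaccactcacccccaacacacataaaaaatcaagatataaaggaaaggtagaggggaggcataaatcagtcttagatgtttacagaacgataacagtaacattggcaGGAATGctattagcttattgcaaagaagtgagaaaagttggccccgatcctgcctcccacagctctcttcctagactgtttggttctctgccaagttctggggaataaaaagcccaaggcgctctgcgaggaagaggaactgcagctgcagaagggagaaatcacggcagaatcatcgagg
This motif was in 13.3% of promoters of genes that rose, 13.7% of those that fell and 12.3% of all tested genes. It was in 14.1% of those that rose at least 16-fold and 15.9% of those that fell at least 16-fold.

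Several other signalling pathways had members that rose and members that fell. Of 49 BMP and TGF-beta genes 22 rose and 2 fell (14 rose against a log2 fold change of 1; median log2 fold change 0.61), among them Tgfb2, a ligand, with 20.1 and 18.6 CPM in Sec-Cre and 0 and 0.253 CPM in WT libraries (6.92 ± 0.51 SE, edgeR adjusted p = 0.000123). Bmp3, an antagonistic BMP, had 2.24 and 2.61 CPM in Sec-Cre and 58.9 and 71.8 CPM in WT libraries and fell (-4.75 ± 0.23, adjusted p = 2.95e-05). The hedgehog ligands moved in opposite directions. Shh, the ligand of foregut and embryonic gut epithelium, had 18.2 and 36.3 CPM in Sec-Cre and 0.810 and 1.62 CPM in WT libraries (4.42 ± 0.54, adjusted p = 0.00102). Ihh, the ligand of adult intestine, had 19.9 and 13.5 CPM in Sec-Cre and 204 and 113 CPM in WT libraries (-3.25 ± 0.32, adjusted p = 0.000422). With limma-voom and library weights Shh missed the threshold (adjusted p = 0.0516), and 25.5% of its 31-base words occur in other genes. Of 12 hedgehog genes 7 rose and 1 fell. Of 37 semaphorin, Slit, Robo and netrin genes, which guide axons and migrating cells, 17 rose and 6 fell (3 fell in a fit of all 13 libraries). Sema3c, a secreted semaphorin, had 340.2 and 277 CPM in Sec-Cre and 63.4 and 51.7 CPM in WT libraries (2.42 ± 0.16, adjusted p = 8.17e-05). Slit2, the ligand of Robo1, had 8.46 and 5.75 CPM in Sec-Cre and 36.9 and 46.2 CPM in WT libraries and fell (-2.55 ± 0.29). Of 29 Notch genes 7 rose and 7 fell, against 16.7% and 16.3% over all tested genes, of which 2 fell without either Sec-Cre replicate and 4 in a fit of all 13 libraries.

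Transcription factors of intestinal identity fell more often than they rose. Of 46 intestinal and regional factors 11 rose and 19 fell, against 16.7% and 16.3% over all tested genes. Against a log2 fold change of 1 these counts were 7 and 9, and the median log2 fold change was -0.52. Hnf4a, a nuclear receptor that binds enterocyte enhancers (chromosome 2, 163506808 to 163572910, GRCm38), had 481 and 492 CPM in Sec-Cre and 1408 and 1474 CPM in WT libraries (-1.57 ± 0.12 SE, edgeR adjusted p = 0.00015). Its paralog Hnf4g had 33.5 and 42.1 CPM in Sec-Cre and 132 and 138 CPM in WT libraries (-1.84 ± 0.17). The vitamin D receptor gene Vdr had 37.1 and 26.5 CPM in Sec-Cre and 373 and 331 CPM in WT libraries (-3.47 ± 0.20). Cdx2, the homeobox factor that sets intestinal fate, had 196 and 213 CPM in Sec-Cre and 358 and 328 CPM in WT libraries (-0.75 ± 0.14, adjusted p = 0.00692). This call was lost without Sec-Cre replicate 1 (edgeR adjusted p = 0.0663) or with all 13 libraries fitted (0.276). Creb3l3, a factor of lipid metabolism, had 0.187 and 0.131 CPM in Sec-Cre and 25.5 and 27.0 CPM in WT libraries (-7.32 ± 0.40). In all 5 genes both Sec-Cre libraries were lower than both WT libraries, but the groups did not overlap in 70.8% of all tested genes either. Isx, a homeobox repressor of vitamin A uptake, went the other way, with 158 and 216 CPM in Sec-Cre and 67.3 and 66.1 CPM in WT libraries (1.49 ± 0.17, adjusted p = 0.000755).

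Of 28 tested genes of foregut and squamous epithelium 16 rose and 1 fell (median log2 fold change 4.84), and 10 rose with limma-voom and library weights. Another 24 genes of this list were under the filter. Sox21, a factor of foregut epithelium, had 219 and 199 CPM in Sec-Cre and 3.48 and 5.57 CPM in WT libraries (5.49 ± 0.25 SE, edgeR adjusted p = 2.76e-05). Keratin 4 (Krt4), of squamous lining, had 156 and 112 CPM in Sec-Cre and 4.21 and 6.74 CPM in WT libraries (4.59 ± 0.27, adjusted p = 4.98e-05). Ctse, an aspartic protease of gastric pits, had 21.9 and 9.67 CPM in Sec-Cre libraries and no WT count (at least 166-fold higher). Of 64 Sox, Fox and other developmental factors 30 had enough reads to be tested, of which 17 rose and none fell (median 2.72). As for the Wnt ligands, a gene of this list or the foregut list without a WT count passed the filter on its Apc-null reads alone. Such a gene could rise or go uncalled but could not fall, so these counts are partly set by the filter. Tbx1, a T-box factor of pharyngeal endoderm, had 9.06 and 8.41 CPM in Sec-Cre libraries and no WT count (at least 93.3-fold higher), and Sox11 had 22.0 and 18.1 CPM in Sec-Cre and 0.0810 and 0.760 CPM in WT libraries (5.36 ± 0.50). Of 11 tested Hox genes, which mark position along the body, none rose and 6 fell, with summed levels of 12.8 and 13.3 CPM in Sec-Cre and 51.9 and 32.3 CPM in WT libraries. That count was 2 without Sec-Cre replicate 1, 3 without Sec-Cre replicate 2 and 3 in a fit of the compared groups alone.

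Among genes of the extracellular matrix, rises outnumbered falls. Of 43 tested basement membrane and matrix genes 28 rose and 2 fell, with a median log2 fold change of 2.97. The type IV collagen gene Col4a2 had 74.0 and 110.2 CPM in Sec-Cre and 0.648 and 1.72 CPM in WT libraries (6.18 ± 0.46 SE, edgeR adjusted p = 0.000132). Col18a1, the source of endostatin, had 78.4 and 65.0 CPM in Sec-Cre and 0.891 and 0.861 CPM in WT libraries (6.35 ± 0.41, adjusted p = 7.35e-05). Fn1, fibronectin, had 434 and 364 CPM in Sec-Cre and 0.162 and 3.39 CPM in WT libraries (7.63 ± 0.73, adjusted p = 0.00035). All 3 genes were low in both WT libraries and high in both Sec-Cre libraries, with no overlap, as held for 70.8% of all tested genes. Summed over the list, levels were 4109 and 3941 CPM in Sec-Cre and 1766 and 1407 CPM in WT libraries. Of 37 matrix proteases and inhibitors 22 rose and 5 fell (median 2.99). Timp2, an inhibitor of metalloproteinases, had 147 and 117 CPM in Sec-Cre and 3.40 and 4.30 CPM in WT libraries (5.08 ± 0.20, adjusted p = 2.76e-05). The metalloproteinase gene Mmp11 had 18.1 and 17.8 CPM in Sec-Cre and 0.162 and 0.203 CPM in WT libraries (6.54 ± 0.36). In a fit of all 13 libraries 3 proteases or inhibitors fell. Of 26 mesenchymal transition genes 13 rose and 5 fell, and 7 rose without either Sec-Cre replicate, 8 without either WT replicate or with limma-voom. In a fit of all 13 libraries 2 fell, and without Sec-Cre replicate 1 3 fell. The mesenchymal counts are to be read against 16.7% that rose and 16.3% that fell over all tested genes. The summed level of that list was lower in Sec-Cre (6006 and 5529 CPM) than in WT libraries (6934 and 6464 CPM). Fibroblast and smooth muscle markers had a median log2 fold change of 6.47 over 8 tested members, of which 2 rose and 1 fell. As 5 of the 8 had no WT count, this median depends on the prior count of the fit. Pdgfra, a receptor of fibroblasts, had 1.07 and 0.828 CPM in Sec-Cre libraries and no WT count and rose (edgeR adjusted p = 0.0106), as did the proteoglycan gene Dcn, with 0.234 and 1.00 CPM in Sec-Cre libraries and no WT count (adjusted p = 0.0398). Pdgfrb, a receptor of pericytes, had 0.280 and 0.261 CPM in Sec-Cre and 4.21 and 3.75 CPM in WT libraries and fell (adjusted p = 0.00354). Of this list 5 rose with DESeq2 or without the filter on low counts, and 0 or 1 when a Sec-Cre or WT library was left out. Dcn lost its call whichever organoid library was left out (edgeR adjusted p = 0.0647 to 0.226), under the replicate block (0.0602), with limma-voom (0.0838) and in a fit of all 13 libraries (0.0712). Pdgfra lost its call without Sec-Cre replicate 1 (edgeR adjusted p = 0.0555) and Pdgfrb in a fit of all 13 libraries (0.0705). All tested fibroblast and smooth muscle markers but Fbln1 were below 5 CPM in every Sec-Cre and WT library. The part of such cells in the matrix genes was not tested.

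Within families of structural proteins, members moved in both directions. Annexins bind membranes in a calcium-dependent way, and of 23 tested annexin and S100 genes 12 rose and 4 fell. Anxa1 had 386 and 395 CPM in Sec-Cre and 4.46 and 6.43 CPM in WT libraries and rose (6.14 ± 0.23 SE, edgeR adjusted p = 2.76e-05). Anxa13, an intestinal annexin, had 16.2 and 18.4 CPM in Sec-Cre and 282 and 210.4 CPM in WT libraries and fell (-3.83 ± 0.20, adjusted p = 4.17e-05). Of 21 tested keratins 9 rose and 2 fell (5 rose with limma-voom). Keratin 20 (Krt20), of the differentiated villus, had 1.31 and 2.13 CPM in Sec-Cre and 139.8 and 114 CPM in WT libraries (-6.20 ± 0.35, adjusted p = 4.66e-05). Krt23 had 191 and 143 CPM in Sec-Cre and 49.4 and 32.6 CPM in WT libraries (2.03 ± 0.23). Claudins form the seal and pores of tight junctions. Over 21 claudin and tight junction genes 5 rose and 4 fell, against 16.7% and 16.3% over all tested genes, and without Sec-Cre replicate 1 these counts were 3 and 2 (3 rose also without replicate 2, and 2 rose and 2 fell in a fit of all 13 libraries). Cldn15, a sodium pore of the small intestine, had 91.4 and 77.9 CPM in Sec-Cre and 573 and 467 CPM in WT libraries (-2.62 ± 0.16, adjusted p = 6.26e-05). Cldn2, another pore, had 89.6 and 72.8 CPM in Sec-Cre and 377 and 299.6 CPM in WT libraries (-2.06 ± 0.17). Cldn4, a sealing claudin, had 585 and 627 CPM in Sec-Cre and 170.4 and 101 CPM in WT libraries and rose (2.16 ± 0.25, adjusted p = 0.000825).

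**Figure D2:**
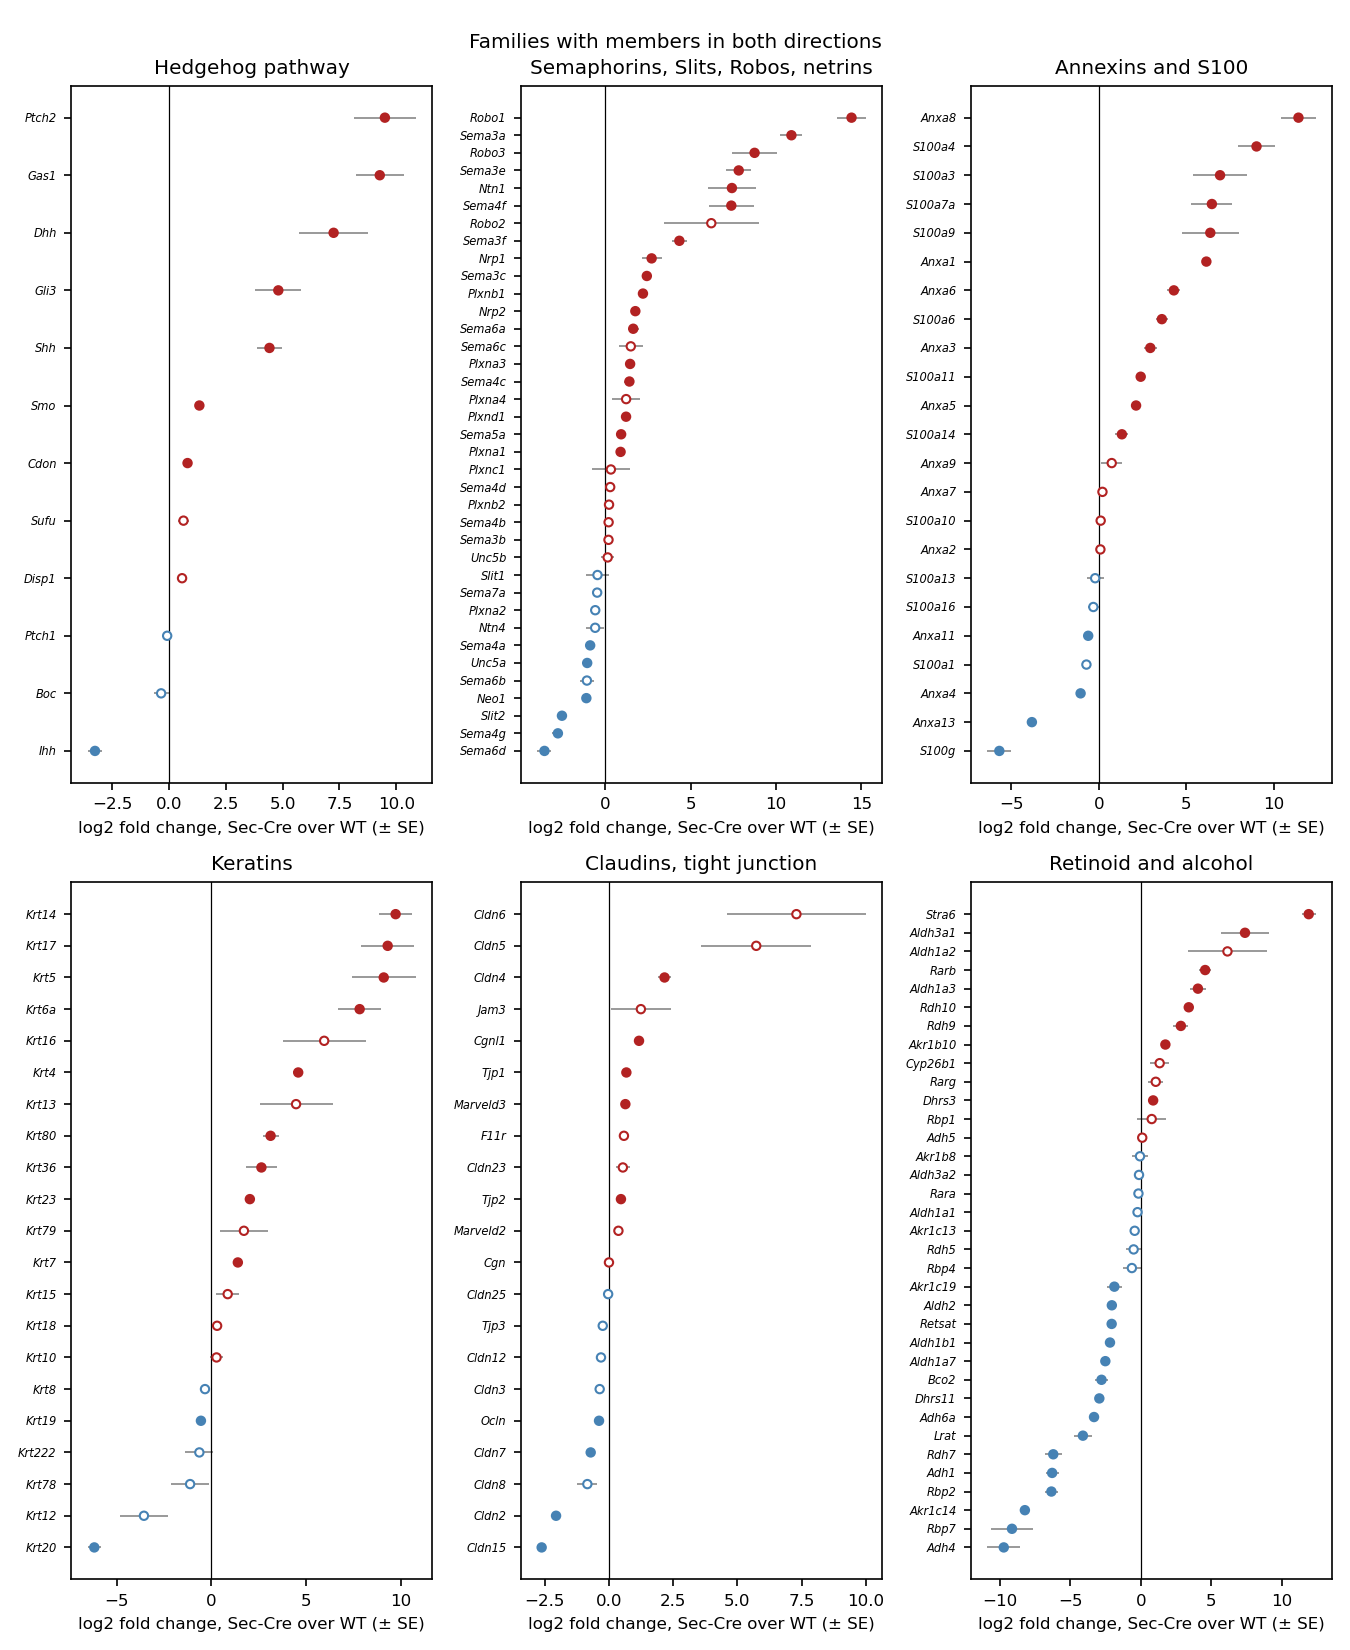
Log2 fold change of Sec-Cre over WT organoids, with SE bars, for tested members of 6 families (hedgehog pathway, semaphorins and Slits, annexins and S100 genes, keratins, claudins, retinoid genes), ordered by value within each; filled dots passed the edgeR test and open dots did not. In every panel some members lie right of 0 and others left of it.

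Genes of the absorptive cell fell in most cases. Of 21 tested brush border enzymes none rose and 18 fell, with a median log2 fold change of -3.68. Sis, sucrase-isomaltase, had 6.12 and 5.31 CPM in Sec-Cre and 2295 and 1282 CPM in WT libraries (-8.29 ± 0.36 SE, edgeR adjusted p = 2.76e-05). The alkaline phosphatase gene Alpi had 0.234 and 0.131 CPM in Sec-Cre and 64.0 and 46.6 CPM in WT libraries (-8.21 ± 0.48). Mgam, the maltase-glucoamylase, fell less, with 297 and 362 CPM in Sec-Cre and 1874 and 1772 CPM in WT libraries (-2.47 ± 0.15). The summed level of the list was 435 and 527 CPM in Sec-Cre and 5745 and 4377 CPM in WT libraries. Of 34 genes of fat absorption 29 fell and 2 rose (median -2.24). Mttp, which loads lipid onto lipoproteins, had 8.32 and 6.14 CPM in Sec-Cre and 466 and 329.7 CPM in WT libraries (-5.78 ± 0.25). Fabp1, a fatty acid carrier, had 0.0467 and 0 CPM in Sec-Cre and 52.7 and 8.30 CPM in WT libraries, a ratio of 0.000888 (95% counting interval 2.24e-05 to 0.00496). Of 57 nutrient transporters 35 fell and 6 rose, of which 1 to 3 rose without either Sec-Cre replicate or either WT replicate, 3 under the replicate block and 1 in a fit of all 13 libraries. Slc5a1, the sodium-glucose cotransporter, had 75.5 and 85.8 CPM in Sec-Cre and 637 and 383 CPM in WT libraries (-2.66 ± 0.25, adjusted p = 0.000306).

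Motifs of intestinal factors were read in the promoter windows of these genes. The windows of Sis (chr3:72967814-72968113, minus strand), Fabp1 (chr6:71199629-71199928, plus strand) and Bche (chr3:73708366-73708665, minus strand) are shown, with capitals for the CDX motif (TTTATTG or TTTATGG) and the HNF1 motif GTTAAT in Sis and Fabp1, and for the HNF4A motif AAAGTCC and the CDX motif in Bche, on either strand. Bche, butyrylcholinesterase, had 0.280 and 2.18 CPM in Sec-Cre and 89.8 and 113 CPM in WT libraries (log2 fold change -6.34 ± 0.67 SE, edgeR adjusted p = 0.00055).
Sis: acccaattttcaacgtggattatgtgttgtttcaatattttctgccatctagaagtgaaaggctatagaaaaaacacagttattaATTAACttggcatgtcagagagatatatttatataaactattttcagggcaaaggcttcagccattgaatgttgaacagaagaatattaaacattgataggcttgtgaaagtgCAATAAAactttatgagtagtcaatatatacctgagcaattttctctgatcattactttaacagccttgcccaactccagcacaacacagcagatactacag
Fabp1: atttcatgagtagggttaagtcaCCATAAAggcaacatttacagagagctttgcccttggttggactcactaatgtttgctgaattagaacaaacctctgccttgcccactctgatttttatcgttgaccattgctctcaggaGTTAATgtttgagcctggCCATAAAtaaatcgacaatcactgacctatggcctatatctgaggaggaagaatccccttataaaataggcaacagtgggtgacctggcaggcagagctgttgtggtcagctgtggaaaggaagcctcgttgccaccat
Bche: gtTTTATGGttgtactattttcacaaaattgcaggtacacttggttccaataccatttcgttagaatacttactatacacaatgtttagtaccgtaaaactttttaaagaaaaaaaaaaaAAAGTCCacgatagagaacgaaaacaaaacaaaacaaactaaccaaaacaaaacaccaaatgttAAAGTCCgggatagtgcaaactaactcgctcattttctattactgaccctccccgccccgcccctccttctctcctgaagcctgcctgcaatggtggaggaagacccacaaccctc
The HNF4A motif was in 12.4% of promoters of genes that fell at least 16-fold and 3.48% of those that rose at least 16-fold, in 6.64% of those that fell, 3.6% of those that rose and 4.28% of all tested genes. For HNF1 the motif was in 12% of promoters of genes that fell at least 16-fold and 6.97% of those that rose at least 16-fold, in 6.18% of those that fell, 4.12% of those that rose and 4.37% of all tested genes. That of CDX was in 8.53% of promoters of genes that fell at least 16-fold and 4.92% of those that rose at least 16-fold, in 5.25% of those that fell, 4.18% of those that rose and 4.42% of all tested genes. As a comparison, the AP-1 motif (TGACTCA or TGAGTCA) was in 6.2% of promoters of genes that fell at least 16-fold and 6.76% of those that rose at least 16-fold, in 5.02% of those that fell, 4.52% of those that rose and 3.74% of all tested genes. Like the TCF/LEF motif above, each of these 4 was more frequent in the genes that fell at least 16-fold than in all tested genes. These shares are descriptions of letters in a window and carry no test.

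Genes of each secretory cell type fell more often than they rose. Summed levels of the goblet, enteroendocrine and Paneth lists were lower in both Sec-Cre libraries than in either WT library. The tuft sum was not lower, with 2606 and 2417 CPM in Sec-Cre and 2346 and 2404 CPM in WT libraries. Of 29 tested goblet genes 19 fell and none rose (median log2 fold change -2.02), among them Guca2a, the hormone guanylin, with 48.1 and 48.8 CPM in Sec-Cre and 463 and 367 CPM in WT libraries (-3.10 ± 0.15 SE, edgeR adjusted p = 3.03e-05), and Spink4, a protease inhibitor of goblet cells, with 33.2 and 50.5 CPM in Sec-Cre and 502 and 523 CPM in WT libraries (-3.61 ± 0.21). Ang4, a secreted ribonuclease, did not pass (321 and 336 CPM in Sec-Cre and 458 and 397 CPM in WT libraries). Of 42 enteroendocrine genes 28 fell and 1 rose, and 14 fell without Sec-Cre replicate 1. The peptide hormone gene Pyy had 0.0934 and 0.131 CPM in Sec-Cre and 28.7 and 16.8 CPM in WT libraries (-7.58 ± 0.59, adjusted p = 0.000149). Tph1, which makes serotonin, had 0.187 and 0.261 CPM in Sec-Cre and 11.9 and 12.6 CPM in WT libraries (-5.73 ± 0.59). The member that rose was Peg3, an imprinted zinc finger gene. Of 32 tuft genes 17 fell and 2 rose (10 fell without Sec-Cre replicate 1, 7 in a fit of all 13 libraries), with Rgs13, a regulator of G proteins, at 0.841 and 1.31 CPM in Sec-Cre and 18.5 and 14.6 CPM in WT libraries. Of 27 Paneth genes 16 fell and 1 rose (10 fell without Sec-Cre replicate 1, 3 in a fit of all 13 libraries). Guca2b, uroguanylin, had 16.7 and 10.3 CPM in Sec-Cre and 209.8 and 132 CPM in WT libraries (-3.66 ± 0.32). Its place in this list was a choice, and its fall alone does not speak for Paneth cells. Mmp7, the protease that activates Paneth cell defensins, was the member that rose, with 492 and 676 CPM in Sec-Cre and 314 and 338 CPM in WT libraries (adjusted p = 0.0118, 0.0736 without Sec-Cre replicate 2 and 0.633 in a fit of all 13 libraries).

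**Figure D3:**
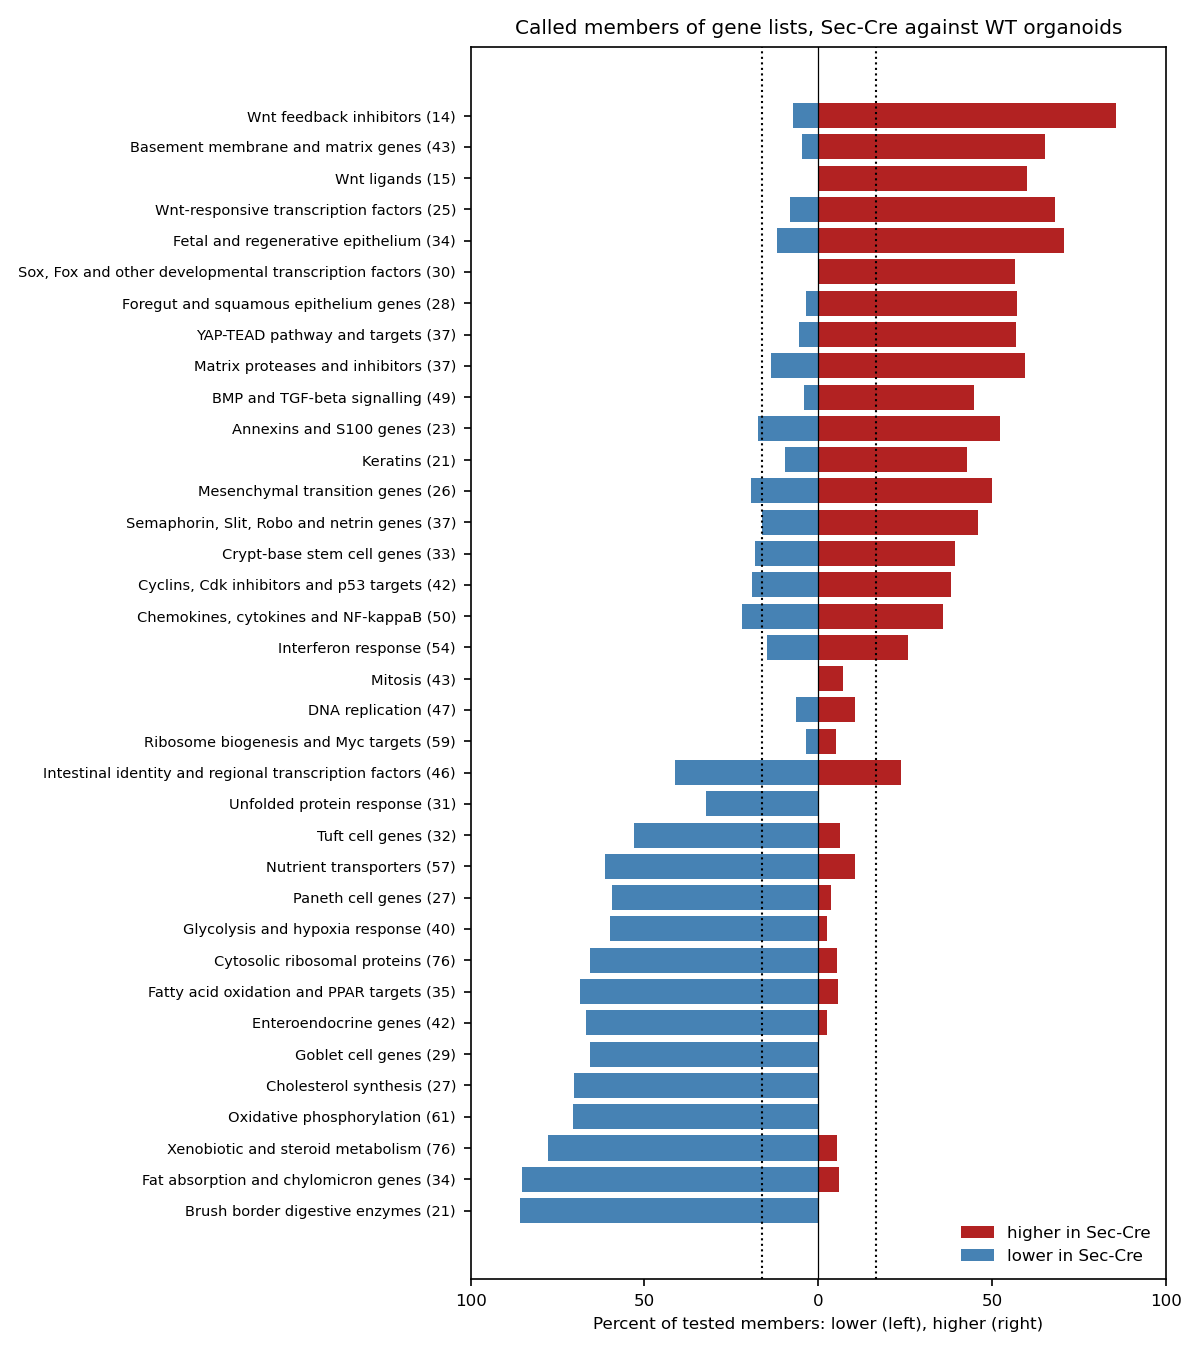
Share of the tested members of 36 gene lists that rose (red, right) or fell (blue, left) in Sec-Cre relative to WT organoids by the edgeR test, in percent, with the number of tested members beside each name; dotted lines mark the share over all tested genes (16.7% higher, 16.3% lower). The lists drawn were picked by hand from the 63. Those left out include Wnt receptors, Notch, EGF and retinoid genes, in which some members rose and others fell. Among the lists drawn, Wnt, matrix, fetal and foregut lists extend to the right and absorptive, secretory and metabolic lists to the left.

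Metabolic genes fell in number. Of 76 tested genes of xenobiotic and steroid metabolism 59 fell and 4 rose, with a median log2 fold change of -2.77 and summed levels of 1925 and 1719 CPM in Sec-Cre and 7375 and 6325 CPM in WT libraries. Cyp4f14, a fatty acid and vitamin hydroxylase, had 3.64 and 3.05 CPM in Sec-Cre and 288 and 234 CPM in WT libraries (-6.28 ± 0.20 SE, edgeR adjusted p = 2.57e-05). Cyp2s1 had 2.20 and 2.05 CPM in Sec-Cre and 242 and 139.9 CPM in WT libraries (-6.49 ± 0.36). Cyp1b1, a cytochrome P450 of steroids and dioxin response, was 1 of the 4 that rose, with 34.6 and 46.6 CPM in Sec-Cre and 0 and 0.354 CPM in WT libraries (7.53 ± 0.55, adjusted p = 0.000123), as was the drug efflux pump gene Abcc4, with 137 and 115 CPM in Sec-Cre and 34.2 and 29.4 CPM in WT libraries (1.99 ± 0.15). Of 35 retinoid and alcohol genes 8 rose and 15 fell, against 16.7% and 16.3% over all tested genes. Stra6, the membrane receptor that takes up retinol, had 179 and 113 CPM in Sec-Cre and 0 and 0.0506 CPM in WT libraries, a ratio of 4649 (95% counting interval 834 to 183600). Rdh10, which oxidises retinol, had 392 and 327 CPM in Sec-Cre and 30.5 and 37.1 CPM in WT libraries (3.41 ± 0.18, adjusted p = 4.17e-05). Both rose, while Rbp2, the retinol carrier of the enterocyte, had 0.374 and 0.436 CPM in Sec-Cre and 21.9 and 45.1 CPM in WT libraries (-6.35 ± 0.48). Adh1, an alcohol dehydrogenase, had 1.96 and 1.13 CPM in Sec-Cre and 131 and 112 CPM in WT libraries (-6.30 ± 0.47).

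Of 35 genes of fatty acid oxidation 24 fell and 2 rose (11 fell against a log2 fold change of 1; median log2 fold change -1.06). Ppara, the fatty acid receptor that drives them, had 0.934 and 0.915 CPM in Sec-Cre and 40.4 and 41.1 CPM in WT libraries (-5.45 ± 0.32 SE, edgeR adjusted p = 5.29e-05), and Pdk4, a brake on pyruvate oxidation and a PPAR target, rose, with 13.8 and 9.15 CPM in Sec-Cre and 0.243 and 0.506 CPM in WT libraries (4.83 ± 0.44, adjusted p = 0.000284). Of 61 subunits and factors of oxidative phosphorylation 43 fell and none rose, with a median of -0.55. Uqcrc2, a core subunit of complex III, had 199.6 and 213 CPM in Sec-Cre and 449.5 and 384 CPM in WT libraries (-1.01 ± 0.13, adjusted p = 0.00118). This count was 21 without Sec-Cre replicate 1, 22 without replicate 2, 11 in a fit of all 13 libraries and 1 against a log2 fold change of 1. No cholesterol synthesis gene rose, and 19 of 27 fell (median -0.82; 8 fell in a fit of all 13 libraries and none against a log2 fold change of 1), with Mvd, mevalonate decarboxylase, at 76.8 and 70.8 CPM in Sec-Cre and 157 and 176 CPM in WT libraries (-1.17 ± 0.13). Of 40 glycolysis and hypoxia genes 24 fell and 1 rose, 14 fell without Sec-Cre replicate 2 and 15 without WT replicate 1. Ndrg1, induced by hypoxia, differed between the WT libraries themselves, with 95.1 and 131 CPM in Sec-Cre and 1127 and 620.1 CPM in WT libraries (-2.95 ± 0.32). The summed level of this list was 9759.5 and 8721 CPM in Sec-Cre and 27310.0 and 15861 CPM in WT libraries, so WT replicate 1 stood above all others.

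Genes of growth and division had medians closer to 0 than those of digestion. Of 76 cytosolic ribosomal protein genes 50 fell and 4 rose, with a median log2 fold change of -0.48, and they took 50098 and 51888 CPM in Sec-Cre and 73546 and 72987 CPM in WT libraries. Rpl4 had 1816 and 1952 CPM in Sec-Cre and 3399 and 3178 CPM in WT libraries (-0.80 ± 0.12 SE, edgeR adjusted p = 0.00241, 0.0955 in a fit of all 13 libraries), and 29.1% of its words occur in other genes. The count of falls was 16 without Sec-Cre replicate 1, 23 without replicate 2 and 0 both in a fit of all 13 libraries and against a log2 fold change of 1. Of 59 genes of ribosome assembly and Myc targets 3 rose and 2 fell, and of 43 mitosis genes 3 rose and none fell, against 16.7% and 16.3% over all genes. Without WT replicate 2, 16 of the ribosome assembly genes rose, and with upper-quartile scaling 6 rose in each list. Of 47 DNA replication genes 5 rose and 3 fell, and 11 rose with upper-quartile scaling, 9 with DESeq2, 8 without the filter on low counts, 14 without WT replicate 2, 1 without WT replicate 1 and 0 without either Sec-Cre replicate or in a fit of all 13 libraries. Top2a, the topoisomerase of dividing cells, had 732 and 812 CPM in Sec-Cre and 741 and 749 CPM in WT libraries (adjusted p = 0.802). Among 42 cyclins, Cdk inhibitors and p53 targets 16 rose and 8 fell. Ccnd1, cyclin D1, had 695 and 732 CPM in Sec-Cre and 314 and 283 CPM in WT libraries (1.26 ± 0.12) and rose. The p53 target Trp53inp1 had 246 and 249.7 CPM in Sec-Cre and 43.8 and 41.4 CPM in WT libraries (2.54 ± 0.14). The p53-induced kinase gene Plk2 had 125 and 129 CPM in Sec-Cre and 28.4 and 28.4 CPM in WT libraries (2.16 ± 0.13). Sesn1, another p53 target, fell (15.2 and 18.0 CPM in Sec-Cre and 55.7 and 43.1 CPM in WT libraries), and Cdkn1a, a Cdk inhibitor, overlapped between groups (221 and 207 CPM in Sec-Cre and 321 and 153 CPM in WT libraries). Its log2 fold change was 0.48 without WT replicate 1 and -0.58 without WT replicate 2, and it passed the edgeR test in both (adjusted p = 0.0441 and 0.0175). Of this list of 42, 3 fell without Sec-Cre replicate 1 or 2, 4 fell without WT replicate 1, and the 13-library fit gave 9 rises and 4 falls. Bcl2l1, which guards against apoptosis, had 178 and 174 CPM in Sec-Cre and 40.5 and 39.4 CPM in WT libraries (2.14 ± 0.16). Bcl2l11, which promotes it, had 89.0 and 95.2 CPM in Sec-Cre and 27.2 and 29.6 CPM in WT libraries (1.70 ± 0.13).

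**Figure D4:**
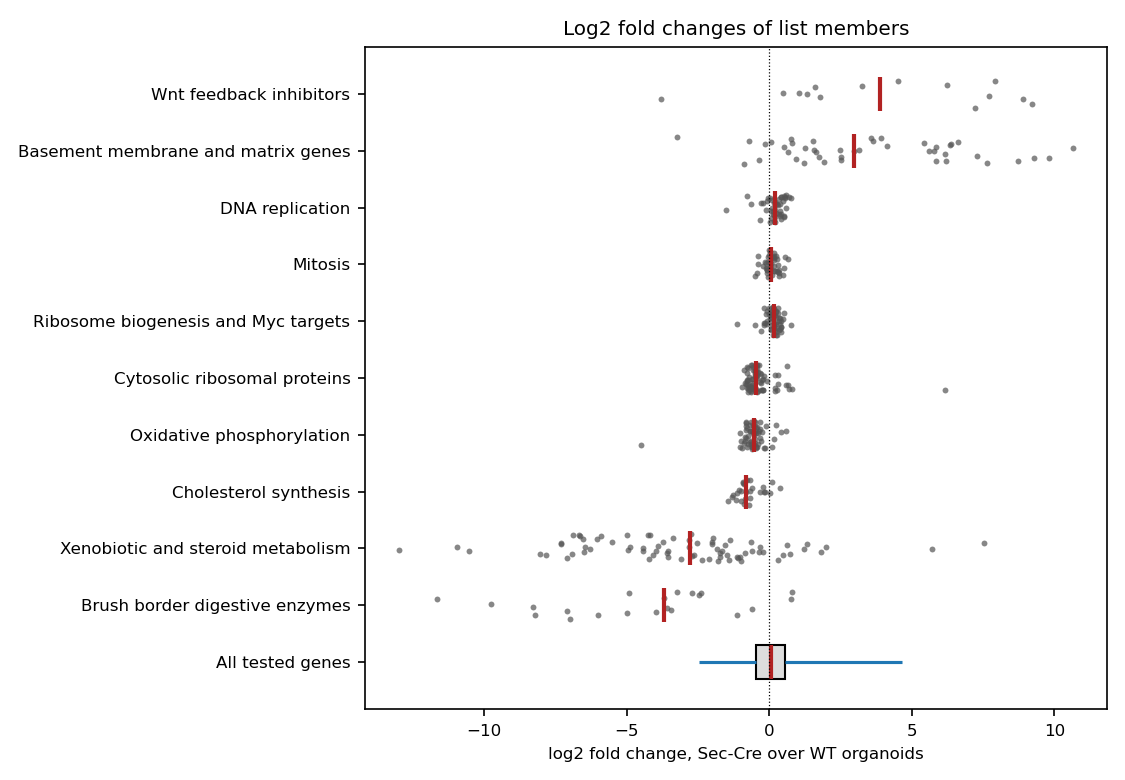
Log2 fold change of Sec-Cre over WT organoids for each tested member (dots) of 10 lists and for all 14208 tested genes (box from the first to the last quartile, whiskers from 5% to 95%), with the list median as a bar. Most oxidative phosphorylation and ribosomal protein genes sit in a narrow band left of 0 (medians -0.55 and -0.48), replication and mitosis genes lie around 0, and brush border and xenobiotic genes reach far to the left.

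Immune and stress genes had members in both directions. Of 50 chemokine, cytokine and NF-kappaB genes 18 rose and 11 fell, against 16.7% and 16.3% over all tested genes (7 fell without Sec-Cre replicate 1). Ccl25, the chemokine that draws lymphocytes to the small intestine, had 7.47 and 10.5 CPM in Sec-Cre and 257 and 228 CPM in WT libraries (-4.75 ± 0.28 SE, edgeR adjusted p = 5.45e-05). Ccl28, a mucosal chemokine, had 0.514 and 0.784 CPM in Sec-Cre and 95.8 and 78.8 CPM in WT libraries (-7.05 ± 0.32). Csf1, the growth factor of macrophages, rose, with 31.3 and 31.1 CPM in Sec-Cre and 0.162 and 0.810 CPM in WT libraries (5.83 ± 0.50, adjusted p = 0.000216), as did Tnf, with 23.7 and 18.8 CPM in Sec-Cre and 3.32 and 1.98 CPM in WT libraries (3.03 ± 0.32). Of 54 interferon response genes 14 rose and 8 fell. The transmembrane protein gene Ifitm1 had 290.3 and 168 CPM in Sec-Cre and 0.729 and 0 CPM in WT libraries (9.61 ± 0.68, adjusted p = 0.000105), while the interferon regulatory factor gene Irf8 had 30.0 and 37.4 CPM in Sec-Cre and 103 and 102 CPM in WT libraries (-1.60 ± 0.17). Without Sec-Cre replicate 1 these counts were 8 and 4, without replicate 2 they were 7 and 4, without WT replicate 1 4 fell, with limma-voom 8 rose, and the 13-library fit gave 5 falls. Of 31 genes of the unfolded protein response 10 fell and none rose (5 fell without Sec-Cre replicate 2, 2 in a fit of all 13 libraries), with Xbp1, a factor of secretory cells, at 116 and 115 CPM in Sec-Cre and 257 and 190.3 CPM in WT libraries (-0.95 ± 0.16). Mt1, a metallothionein that binds zinc, had 109.9 and 138 CPM in Sec-Cre and 1034 and 1946 CPM in WT libraries (-3.59 ± 0.33, adjusted p = 0.000291). Duox2, which makes hydrogen peroxide at the surface, had 2.24 and 4.40 CPM in Sec-Cre and 61.9 and 55.1 CPM in WT libraries (-4.13 ± 0.33).

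The other lists of signalling, adhesion and stress genes are given by their counts, to be read against 16.7% that rose and 16.3% that fell over all tested genes. The shares of the EGF, integrin, MHC class II and serine lists were near these. Of 18 destruction complex genes 6 rose and none fell (3 rose without either Sec-Cre replicate, 2 in a fit of all 13 libraries), of 24 EGF and neuregulin genes 4 rose and 5 fell, of 21 FGF genes 6 rose and 5 fell (3 rose without either Sec-Cre replicate or in a fit of all 13 libraries), and of 17 Eph and ephrin genes 6 rose and 4 fell. Of 19 genes of the insulin-like growth factor axis 10 rose and 4 fell, and Igfbp3, which binds these factors, had 14.9 and 12.3 CPM in Sec-Cre and 0.972 and 0.506 CPM in WT libraries (4.25 ± 0.39 SE, edgeR adjusted p = 0.000284). The imprinted RNA gene H19 had 12.3 and 24.1 CPM in Sec-Cre and 0.405 and 0.304 CPM in WT libraries (5.70 ± 0.47). Both of these genes were higher in each Sec-Cre library than in either WT library, where 70.8% of all tested genes had groups without overlap. Of 19 integrins 4 rose and 4 fell, of 16 M cell genes 5 rose and 3 fell, of 18 colon-enriched genes 2 rose and 9 fell, and of 47 serine, one-carbon and nucleotide synthesis genes 7 rose and 8 fell. The last list gave 2 rises without Sec-Cre replicate 1, 3 without replicate 2 and 1 rise and 3 falls in a fit of all 13 libraries. Of 37 apoptosis regulators 10 rose and 6 fell (3 fell without either Sec-Cre replicate or in a fit of all 13 libraries), of 28 AP-1 and immediate early genes 6 rose and 3 fell (2 rose without Sec-Cre replicate 1, 3 without replicate 2 and 11 without WT replicate 1), and of 33 oxidative stress genes 4 rose and 12 fell. Of 26 prostaglandin and leukotriene genes 5 rose and 10 fell (5 fell without Sec-Cre replicate 1, 6 in a fit of all 13 libraries), of 31 ion channel and chloride secretion genes 8 rose and 16 fell (9 fell without either Sec-Cre replicate or in a fit of all 13 libraries), and of 6 MHC class II genes 1 rose and 1 fell. Car2, a carbonic anhydrase that supplies bicarbonate, had 35.7 and 52.3 CPM in Sec-Cre and 3.65 and 1.92 CPM in WT libraries (4.02 ± 0.34, adjusted p = 0.000209).

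A direct edgeR comparison of Sec-Cre with ISC-Cre organoids, in which the stem cell driver deleted Apc, called 6 of 14208 genes (0.0422%), while 719 had an unadjusted p under 0.05 and DESeq2 called 62. The edgeR count was 0 without Sec-Cre replicate 2 or ISC-Cre replicate 1, 3 without Sec-Cre replicate 1, 24 without the filter on low counts, 11 in a fit of the compared groups alone, 12 with limma-voom and 1 in a fit of all 13 libraries. The extraction protocol gives TrypLE for the Lgr5 driver samples and collagenase for the others, so driver and dissociation cannot be told apart if this holds for the organoids. A p that misses the threshold does not show that the 2 kinds of organoid were alike. Lyz1, the lysozyme of Paneth cells, had 803 and 608 CPM in Sec-Cre and 3784 and 2693 CPM in ISC-Cre libraries, with 2462 and 2610.0 CPM in WT libraries, and fell relative to ISC-Cre (log2 fold change -2.20 ± 0.21 SE, edgeR adjusted p = 0.0288). By the same test Reg4, a lectin of secretory cells, had 24.4 and 23.8 CPM in Sec-Cre and 132 and 100.3 CPM in ISC-Cre libraries, with 213 and 175 CPM in WT libraries (-2.27 ± 0.18, adjusted p = 0.0196). For both genes Sec-Cre libraries were the lowest of the 3 groups, and 34.2% of the words of Lyz1 occur in other genes. The ISC-Cre comparison with WT shares the WT libraries, so its list counts are given beside those of Sec-Cre without a test, for 4 lists chosen after their values were seen. Feedback inhibitors had 12 rises and 1 fall in Sec-Cre and 11 and 1 in ISC-Cre organoids, and xenobiotic genes 59 falls in Sec-Cre and 59 in ISC-Cre organoids. Oxidative phosphorylation genes had 43 falls in Sec-Cre and 53 in ISC-Cre organoids. Hox genes had no rise and 6 falls in Sec-Cre, and 7 rises and 2 falls in ISC-Cre organoids.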

How the data were processed

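RNA-seq counts of reads per gene were used as the authors deposited them, 1 table per library. Per the submitters' processing notes, STAR (version not given) and the mm10 build were used, with DESeq2 1.22.2; the annotation is not given in the sources used here. Per the labels' protocols, libraries were made from polyA RNA with a kit that does not mark strand, so reads of overlapping and antisense genes cannot be told apart. Each table's 4 summary lines that name no gene were left out. Replicates are separate samples of a group. Whether each is its own animal or culture is not in the labels, and the p-values therefore cover only the spread among these samples, possibly a technical one.

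Genes were filtered with edgeR 4.0.16 (filterByExpr, minimum count 10), scaled by TMM and tested by its quasi-likelihood test on the 6 organoid libraries (2 Sec-Cre, 2 ISC-Cre, 2 WT), with Benjamini-Hochberg adjustment over 14208 genes and a threshold of 0.05. All p-values called adjusted are from this test unless another tool is named, and SE was taken from its F value. CPM used TMM-scaled library sizes. Against a group without a count, folds are lower bounds from 3 counts over the group. Against 1 to 3 counts, ratios carry an exact 95% interval, which covers counting error only. The steps were also run on simulated counts, with the spread taken from the fit itself and far fewer changed genes. Such a run is no check of the fit in these data. Genes were matched to GENCODE for coordinates (22753 of 24054), and a gene with over 20% of its 31-base words in other genes is called uncertain. RefSeq promoter windows (GRCm38.p6) were found for 10596 tested genes.

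The comparison, the 63 gene lists and the rule for named genes were chosen with earlier results of these data known. The rule took Apc, Atoh1, Lgr5 and Axin2, the 15 largest changes in each direction, the 10 called genes with most reads in each direction, and from each list the 4 called members with the smallest adjusted p, up to 3 called members against the majority and the highest member not called; not all are printed, and some are not reported here. Ankrd1, Bche, Cdx2, Csf1, Hnf4g, Myc, Ndrg1, Rbp2, Slc5a1, Sp5, Tgfb2, Tnf and Wwtr1 were taken from outside it after their values were seen. Alternatives were RLE and upper-quartile scaling, no filter, a minimum count of 50, the compared groups alone, all 13 libraries, a fold threshold, a replicate block, limma-voom (limma 3.58.1), DESeq2 1.42.0 and leaving out each library.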

Additional observations from a re-analysis of the deposited data

Results flagged for a closer look

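The levels of 6 genes differed between Sec-Cre and ISC-Cre organoids by a direct edgeR test. Hoxb9, a homeobox gene of the Hoxb cluster, had 0.607 and 1.09 CPM in Sec-Cre and 95.7 and 126 CPM in ISC-Cre libraries, with 9.32 and 2.13 CPM in WT libraries (log2 difference -7.01 ± 0.70 SE, adjusted p = 0.0347). Hoxb7, of the same cluster, had 0.607 and 0.261 CPM in Sec-Cre and 26.6 and 26.1 CPM in ISC-Cre libraries, with 2.59 and 1.67 CPM in WT libraries (log2 difference -5.92 ± 0.46 SE, adjusted p = 0.0196). Hoxb6, its neighbour in the Hoxb cluster, had 2.57 and 1.66 CPM in Sec-Cre and 60.2 and 56.6 CPM in ISC-Cre libraries, with 7.45 and 3.14 CPM in WT libraries (log2 difference -4.79 ± 0.43 SE, adjusted p = 0.0288). These 3 Hoxb genes were below 3 CPM in both Sec-Cre libraries. Their levels in WT libraries were also far below those in ISC-Cre libraries. Hoxb3, of the same cluster, had 3.22 and 3.18 CPM in Sec-Cre and 28.2 and 37.1 CPM in ISC-Cre libraries, with 3.65 and 2.28 CPM in WT libraries (log2 difference -3.35 ± 0.32 SE, adjusted p = 0.0288). Reg4, the secretory lectin described above, had 24.4 and 23.8 CPM in Sec-Cre and 132 and 100.3 CPM in ISC-Cre libraries, with 213 and 175 CPM in WT libraries (log2 difference -2.27 ± 0.18 SE, adjusted p = 0.0196). Lyz1, the Paneth cell lysozyme, had 803 and 608 CPM in Sec-Cre and 3784 and 2693 CPM in ISC-Cre libraries, with 2462 and 2610.0 CPM in WT libraries (log2 difference -2.20 ± 0.21 SE, adjusted p = 0.0288). For Hoxb3 and Lyz1, 52.7% and 34.2% of 31-base words occur in other genes, so their counts are uncertain. None of the 6 was called without Sec-Cre replicate 2 or without ISC-Cre replicate 1, where the test called 0 genes.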

How the results depend on the processing

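The 4685 genes called between Sec-Cre and WT organoids became 2477 (1336 higher, 1141 lower) in a fit of all 13 libraries, and 1769 (1017 higher, 752 lower) when tested against a log2 fold change of 1, a stricter question by construction. Leaving out 1 library gave 2608 to 5101 called genes, 1387 to 2668 higher and 1221 to 2433 lower. The other settings stayed within 1.5 times, from 4049 to 5327. The comparison with ISC-Cre organoids, with 6 calls, gave 0 to 9 when 1 library was left out, 24 without the filter on low counts, 11 with the compared groups alone, 12 with limma-voom, 62 with DESeq2, and 1 both in a fit of all 13 libraries and against the fold threshold. Against a log2 fold change of 1, counts of falls not given with this setting above became 19 of 29 for fat absorption, 8 of 16 for Paneth genes, 10 of 24 for glycolysis, 5 of 16 for ion channels, 5 of 12 for oxidative stress, 7 of 11 for chemokines, 3 of 10 for the unfolded protein response, 4 of 10 for prostaglandins, 4 of 9 for colon-enriched genes, 2 of 8 for epithelial markers and for serine synthesis, 1 of 8 for cyclins and for interferon genes, 3 of 7 for Notch, 3 of 6 for semaphorins and 2 of 6 for apoptosis. Rises became 10 of 17 for Wnt-responsive factors, 11 of 17 for semaphorins, 6 of 16 for cyclins, 7 of 14 for interferon genes, 7 of 13 for mesenchymal genes, 6 of 10 for apoptosis, 5 of 8 for ion channels, 4 of 7 for Notch, 0 of 7 for serine synthesis, 3 of 6 for FGF and for Eph genes, and 0 of 6 for nutrient transporters and the destruction complex. The cause of these moves was not tested. The replicate block gave 4049 calls against WT and 4 against ISC-Cre. Deviations of same-numbered libraries correlated at -0.065 to 0.030 for Sec-Cre with the other groups. With 2 libraries per group this cannot show whether the numbers pair samples. Genes not called that changed sign were Cdh1 (log2 fold change 0.050 with upper-quartile scaling, 0.031 with 13 libraries), Myc (0.055 and 0.036 under these, and -0.079 to 0.058 when 1 library was left out), Top2a (-0.020 to 0.13 when 1 library was left out), Lgr5 (-0.84 to 0.34) and Cdkn1a (0.0017 with limma-voom, -0.58 to 0.48 when 1 library was left out). With 2 libraries per group, a gene that missed the threshold is not shown to be unchanged.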
